A study of Myotis pilosus with 4 samples.

Results

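The miR-124 family was examined in the small RNA of the greater large-footed bat, named Myotis ricketti in the study and Myotis pilosus in the sample labels. Its members were the 3 mature sequences listed for the bat as miR-124-5p, miR-124a-3p and miR-124b-3p, beside 193 other mature miRNAs that the study lists, of which 116 are conserved in other animals. They were taken by name, but the choice was made with earlier results of these data known. Each listed sequence was looked up among the deposited sequences (tags) of each library, and the reads of the identical tag were counted. For the 3p arm, the reads of every tag that begins with the same 18 nt were also added, each tag once, and this total is called the miR-124-3p sum.

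The study sequenced 1 small RNA library for each of 4 conditions, which were the brain in hibernation (HB), the brain in the active state (AB), white adipose tissue (WAT) in hibernation (HA) and WAT in the active state (AA). Each library was made from the pooled RNA of several wild-caught adult bats, with no further treatment or genetic change. The labels call the active state aroused, and the active bats were caught in October but the hibernating ones in March, so that state and season cannot be told apart. There is no replicate, so no p-value is given, and every interval is a 95% interval that covers counting error only, since copies made by PCR are not independent molecules and the spread between bats was lost in the pool. The 4 libraries held 10007650 to 12159756 clean reads of 18 to 30 nt, and a miRNA with 0 reads could have had up to 3, or 0.247 to 0.300 reads per 1000000 clean reads (RPM).

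A miRNA is cut from a hairpin RNA, and its 5p or 3p arm is loaded into an Argonaute protein, which it guides to messenger RNAs. The pairing is led by the seed, which is the stretch from base 2 to base 8 of the miRNA, so that miRNAs with the same seed have largely the same targets. miR-124 is best known as a neuronal miRNA: it is among the most abundant miRNAs of vertebrate brain, rises as neurons mature, and represses many transcripts of non-neuronal cells, such as Ptbp1, a repressor of neuronal splicing. The 3p arm is its usual guide strand, and the 5p arm is the passenger strand. Vertebrate genomes usually hold several miR-124 genes that give the same 3p sequence.

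The 3 listed sequences are shown in DNA letters with the seed in capitals, because the nesting of the 3p forms decides how their reads can be counted.
miR-124a-3p: tAAGGCACgcggtgaatg
miR-124b-3p: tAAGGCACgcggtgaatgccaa
miR-124-5p: cGTGTTCAcagcggaccttga
The seed AAGGCAC was found in miR-124a-3p and miR-124b-3p and in no other listed miRNA, and the seed GTGTTCA was found in miR-124-5p only. The 18 nt of miR-124a-3p are the first 18 nt of miR-124b-3p, which is 22 nt long. A read of the short form therefore cannot be assigned to 1 of the 2 listed miRNAs, and it also lies at the shortest length that the libraries kept, so any form under 18 nt was not seen.

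In brain, the 3p arm was among the most abundant small RNAs. miR-124a-3p had 415697 reads in HB and 449967 in AB (34186 and 44962 RPM), against 286 in HA and 292 in AA (24.8 and 25.5 RPM). Among the listed miRNAs it was 2nd in HB and 1st in AB, against 43rd in HA and 52nd in AA. Among all distinct tags, listed or not, its tag was the 2nd in HB and the 1st in AB, against the 3021st in HA and the 1887th in AA.

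miR-124b-3p was the less abundant 3p form in all 4 libraries. It had 39016 reads in HB and 62399 in AB (3209 and 6235 RPM), against 111 in HA and 50 in AA (9.62 and 4.37 RPM). It ranked 10th of the listed miRNAs in HB, 9th in AB, 62nd in HA and 92nd in AA. Both brain libraries were far above both WAT libraries, and HA was above AA.

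miR-124-5p was found in brain only, with 211 reads in HB (17.4 RPM) and 143 in AB (14.3 RPM), and with 0 reads in HA and in AA. A count of 0 allows up to 0.260 RPM in HA and 0.262 RPM in AA. The passenger arm ranked 62nd in HB and 68th in AB, so it was a minor species even where its partner arm led.

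Counted over all its tags, the 3p arm took a much larger share of the libraries than either listed sequence. The miR-124-3p sum was 1086497 reads in HB and 1001796 in AB (89352 and 100103 RPM), against 867 in HA and 715 in AA (75.1 and 62.5 RPM). It made up 8.94% of all clean reads of HB and 10.01% of those of AB. From the highest to the lowest, the order of the sum in RPM was AB, HB, HA and AA, and the intervals of neighbours did not overlap (HA 70.2 to 80.3 RPM, AA 58.0 to 67.3 RPM). For miR-124a-3p alone, HA and AA could not be told apart at this depth, with intervals of 21.99 to 27.8 and 22.7 to 28.6 RPM.

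**Figure D1:**
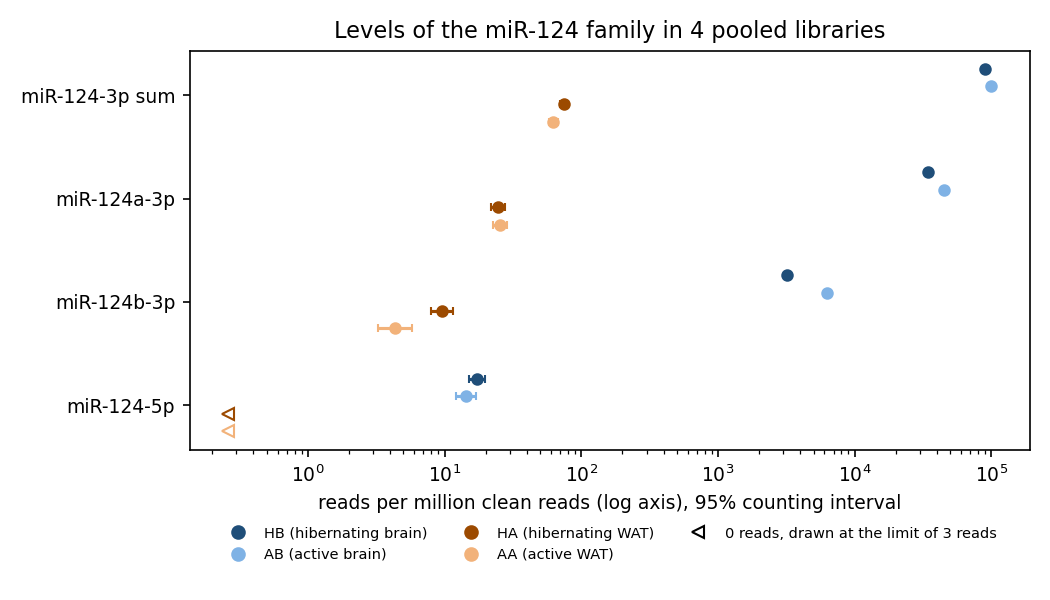
RPM (horizontal log axis) of the miR-124-3p sum and the 3 listed sequences in the 4 pooled libraries, 1 point per library with its 95% counting interval. Both brain libraries lie far to the right of both WAT libraries in every row, and the open triangles mark the WAT libraries with 0 reads of miR-124-5p, drawn at the limit that 3 reads would give.

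The first question was how far brain and WAT differ in each state. The level in brain over the level in WAT was scaled by TMM, a trimmed mean of the ratios of all listed miRNAs that sets the centre of the ratios. Between AB and AA, miR-124a-3p was 1652-fold higher in brain, a log2 ratio of 10.69 (10.52 to 10.86). miR-124b-3p was 1338-fold higher (10.39, 9.99 to 10.82) and the miR-124-3p sum 1502-fold higher (10.55, 10.45 to 10.66). The 2 listed forms had the 2nd and 3rd largest brain-over-WAT ratios of the 159 listed miRNAs that had at least 10 reads over the pair of libraries, where miRNAs at 0 in a library were ranked by their bound.

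Between HB and HA the same order of forms was seen, with a wider gap between them. miR-124a-3p was 1292-fold higher in brain (10.34, 10.17 to 10.51), miR-124b-3p 312-fold higher (8.29, 8.02 to 8.57) and the sum 1114-fold higher (10.12, 10.03 to 10.22). miR-124a-3p ranked 2nd and miR-124b-3p 6th of 159 ratios. The intervals of miR-124a-3p and miR-124b-3p overlapped in the active state and were apart in hibernation.

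Against the floor of 3 reads, miR-124-5p was at least 51.1-fold higher in AB than in AA and at least 62.5-fold higher in HB than in HA. All 3 members were thus past a log2 ratio of 1 in both states, where 38.4% of the miRNAs with enough reads were past it in the same direction between AB and AA and 40.9% between HB and HA. The 0 reads of the 5p arm in WAT carried little information. Brain held 3122 reads of the miR-124-3p sum in HB and 3991 in AB for each read that began with the first 18 nt of miR-124-5p. At those arm ratios, the 3p reads of HA would come with 0.278 reads of the 5p arm and those of AA with 0.179, so a 5p arm at the brain ratio was not detectable in WAT at this depth.

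The second question was how the family differs between hibernation and the active state. In brain, none of the 3 members reached a log2 ratio of 1 in either direction, whereas 40.5% of the 153 miRNAs with enough reads did. miR-124a-3p had a log2 ratio of HB over AB of -0.11 (-0.11 to -0.10) and ranked 85th of 153 from the highest. miR-124b-3p was lower in HB, with a ratio of -0.67 (-0.69 to -0.65), the 115th. miR-124-5p was higher in HB, with a ratio of 0.57 (0.26 to 0.89), the 55th, and over all its tags, with 348 reads in HB and 251 in AB, the ratio was 0.48 (0.24 to 0.72).

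The miR-124-3p sum lay close to 0, at 0.13 (0.12 to 0.13). Its sign and that of miR-124a-3p changed with the scaling. Per clean read the sum was lower in HB (log2 ratio -0.16), and with TMM over the conserved miRNAs alone the ratio of miR-124a-3p was 0.026. A difference of this size between 2 pooled libraries has no replicate spread to be read against. miR-124b-3p stayed lower in HB under each scaling tried, from -0.96 per clean read to -0.54 with TMM over the conserved miRNAs, whereas miR-124-5p stayed higher.

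In WAT, the 3p arm was higher in hibernation by TMM, at far lower read numbers. The log2 ratio of HA over AA was 0.31 (0.07 to 0.55) for miR-124a-3p, 1.49 (0.99 to 2.00) for miR-124b-3p and 0.61 (0.47 to 0.76) for the sum. miR-124b-3p, at 2.80-fold, was the only 1 of the 2 members with enough reads that was past 1, and 49.3% of the 142 miRNAs compared were past 1 in either direction. The ratio of miR-124b-3p ranked 20th of 142 and that of miR-124a-3p 46th. Per clean read, miR-124a-3p was level between the states (-0.043), whereas the sum was still higher in HA (0.26). The listed miRNAs made up 13.2% of the clean reads of HA against 20.9% of those of AA, which enters the ratios per clean read. miR-124-5p gave no ratio, since both libraries were at 0.

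The listed 3p forms did not stand for the whole arm, since the 2 listed sequences held 41.9% and 51.1% of the miR-124-3p sum of the brain libraries HB and AB, and 45.8% and 47.8% of that of the WAT libraries HA and AA. The sum was spread over 918 distinct tags, but the 8 most abundant held 92.7% of it. They are shown because they differ only after base 18, where the added bases are in capitals.
Tag 1: taaggcacgcggtgaatg
Tag 2: taaggcacgcggtgaatgC
Tag 3: taaggcacgcggtgaatgA
Tag 4: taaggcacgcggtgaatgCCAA
Tag 5: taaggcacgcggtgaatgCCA
Tag 6: taaggcacgcggtgaatgCAA
Tag 7: taaggcacgcggtgaatgCCAT
Tag 8: taaggcacgcggtgaatgT
Tag 1 is miR-124a-3p and tag 4 is miR-124b-3p. Tags 2 and 5 are intermediate lengths of miR-124b-3p. Tags 3, 6, 7 and 8 depart from it after base 18, and whether those bases are in the bat genome was not analysed here.

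The unlisted tags 2 and 3 were each more abundant than miR-124b-3p in all 4 libraries. Tag 2, with a cytosine at base 19, was read 234851 times in HB and 191718 times in AB, and 155 times in HA and 135 times in AA. Tag 3, with an adenine there, was read 210289, 134000, 136 and 89 times in the same order. These were the 6th and 8th most abundant tags of all kinds in HB and the 10th and 13th in AB, so in HB the family had 3 of the 8 leading tags.

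The remaining tags each held a few percent of the sum. In the order HB, AB, HA and AA, tag 5 had 31688, 35021, 21 and 44 reads, and tag 7 had 17000, 22724, 32 and 23. Tag 6 had 30862, 23425, 26 and 12 reads, and tag 8 had 24165, 12473, 19 and 8. Tags 5 and 7, which like tag 4 run to 21 or 22 nt with a second cytosine, had more reads in AB than in HB, although HB was the deeper library. Tags 2, 3, 6 and 8 had more reads in HB.

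The state ratios of the tags differed by more than their counting intervals. In brain, tag 8 had a log2 ratio of HB over AB of 0.96 (0.93 to 0.99), tag 3 of 0.66 (0.65 to 0.67), tag 6 of 0.41 (0.38 to 0.43) and tag 2 of 0.30 (0.29 to 0.31). Tag 5 had -0.14 (-0.16 to -0.11), tag 7 -0.41 (-0.44 to -0.38) and tag 4 -0.67. Thus 4 of the 8 tags were higher in HB and 4 lower, and the near-zero ratio of the sum was made up of forms that differed in opposite directions. A change of scaling moves all 8 ratios by the same amount and leaves their order.

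In WAT, 7 of the 8 tags had a positive log2 ratio of HA over AA, and tag 5 had -0.73 (-1.56 to 0.05). The ratio was 0.54 (0.19 to 0.88) for tag 2, 0.95 (0.55 to 1.35) for tag 3, 1.45 (0.41 to 2.57) for tag 6, 0.81 (-0.01 to 1.65) for tag 7 and 1.58 (0.33 to 2.98) for tag 8. The intervals of tags 5 and 7 included 0, and those of tags 6 and 8 were wide because AA had 12 and 8 reads of them. By TMM, tags 1, 4 and 7 lay below 0 in brain and above 0 in WAT, with a WAT interval that included 0 for tag 7.

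**Figure D2:**
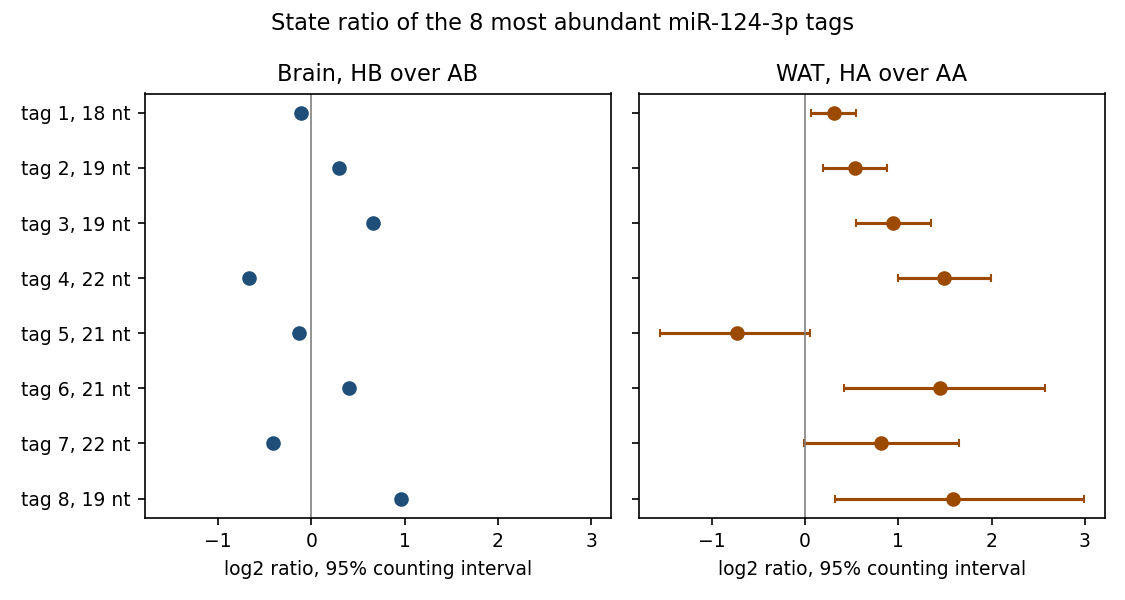
Log2 ratio of hibernation over the active state for the 8 most abundant miR-124-3p tags in brain (left) and WAT (right), scaled by TMM, with 95% counting intervals that are narrower than the points in brain. Brain tags lie on both sides of 0 (from -0.67 for tag 4 to 0.96 for tag 8), whereas in WAT 7 of 8 lie above 0 with wide intervals.

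By length, the 3p arm was mostly shorter than the 22 nt of miR-124b-3p. In the order HB, AB, HA and AA, tags of 18 nt held 38.3%, 44.9%, 33.0% and 40.8% of the sum. Tags of 19 nt held 43.3%, 33.8%, 35.8% and 32.6% in the same order. Thus 19 nt was the commonest length in both hibernation libraries and 18 nt in both active libraries, although in HA the intervals of the 2 lengths overlapped (29.9 to 36.2% and 32.6 to 39.0%). In AA they were apart (37.2 to 44.5% for 18 nt and 29.2 to 36.2% for 19 nt).

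Tags of 22 nt ran differently in the 2 tissues. They made up 5.55% (HB) and 8.92% (AB) of the sum in brain, against 17.4% in HA (14.9 to 20.1%) and 10.6% in AA (8.47 to 13.1%). miR-124b-3p itself held 3.59% of the sum in HB against 6.23% in AB, and 12.8% in HA against 6.99% in AA. Its share was lower in hibernation in brain and higher in hibernation in WAT, and the counting intervals of the 2 states were apart in both tissues. The mean length of the tags was 19.05 nt in HB against 19.07 nt in AB, and 19.49 nt in HA against 19.25 nt in AA.

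Such short forms were uncommon among the other miRNAs compared. That pool left out miRNAs whose listed sequence is itself close to 18 nt long, so the ranks here cover longer listed sequences only. In both brain libraries, the 18 nt share of miR-124-3p was the 4th highest of 65 conserved miRNAs with 100 or more reads, whose other 64 had a median of 1.46% in HB and 1.34% in AB. The change in mean length between states was ordinary. It was -0.02 nt between HB and AB, 25th of 65 from the highest, where the other miRNAs had a median of -0.05 nt, and it was 0.24 nt between HA and AA, 26th of 56, where the median of the others was 0.20 nt.

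**Figure D3:**
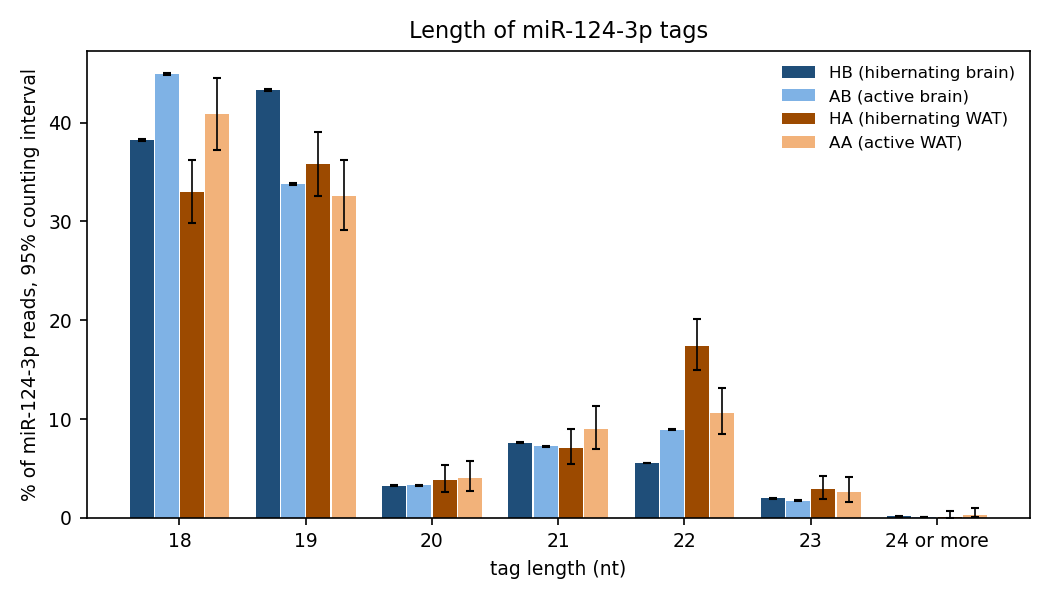
Share of the reads of the miR-124-3p sum at each tag length (nt) in the 4 libraries, as bars with 95% counting intervals. Lengths of 18 and 19 nt make up most reads in each library, and the 22 nt share is highest in HA at 17.4%.

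Among the tags that ran past base 18, cytosine and adenine were the usual next bases. Cytosine, the base of miR-124b-3p, followed in 37.2% and 38.0% of the reads of the sum in brain (HB and AB) and in 45.6% and 42.8% in WAT (HA and AA). Adenine followed in 21.6% (21.5 to 21.6%) in HB and 15.2% (15.1 to 15.2%) in AB, and in 17.8% (15.3 to 20.5%) in HA and 13.8% (11.4 to 16.6%) in AA. Thymine followed in 2.92% and 1.82% in brain and in 3.34% and 2.24% in WAT. Adenine and thymine were thus each more frequent in the hibernation library of both tissues, but in WAT the intervals of the 2 states overlapped.

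Counting every tag that departed anywhere after base 18 from miR-124b-3p, the share was 30.9% (30.8 to 31.0%) in HB and 23.7% (23.6 to 23.8%) in AB, and it was 30.7% (27.6 to 33.9%) in HA and 23.8% (20.7 to 27.1%) in AA. The share was higher in hibernation by 7.23 percentage points in brain and by 6.90 in WAT. This was not particular to miR-124. The same share, taken against each miRNA's own listed sequence, was higher in HB than in AB for 56 of 64 other conserved miRNAs (median difference 1.08 points) and higher in HA than in AA for 45 of 55 (median 2.20 points). Against these, the difference of miR-124-3p was the 7th largest of 65 in brain and the 9th largest of 56 in WAT. Listed sequences of other lengths expose fewer or more bases after base 18, which also enters these ranks. Here too, miRNAs whose listed sequence is close to 18 nt long were left out.

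**Figure D4:**
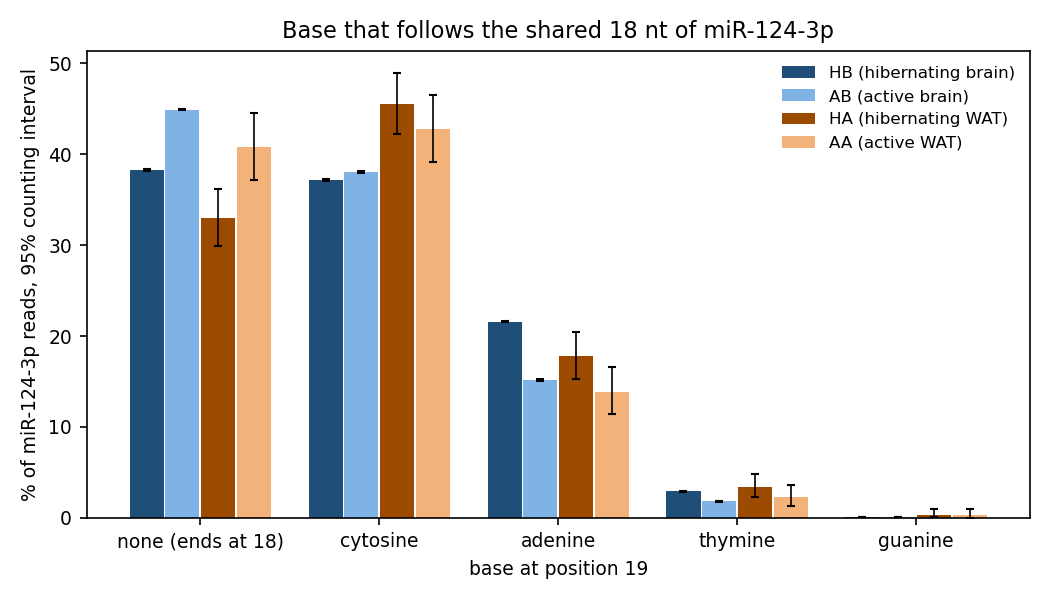
Share of the reads of the miR-124-3p sum by the base at position 19 (none where the tag ends at base 18) in the 4 libraries, as bars with 95% counting intervals. Adenine is higher in HB than in AB (21.6% and 15.2%) and in HA than in AA (17.8% and 13.8%, with overlapping intervals).

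The seed depends on the 5′ end, so tags that hold bases 4 to 18 of the 3p arm were sorted by their first base. Most began where the listed sequences begin, and of the others most began 1 base earlier. The 2 leading shifted tags are shown with the seed each would have in capitals.
1 base earlier: tTAAGGCAcgcggtgaatg
1 base later: aAGGCACGcggtgaatgc
The earlier start made up 6.95% (6.90 to 6.99%) of these reads in HB and 4.67% (4.63 to 4.71%) in AB, and its leading tag was read 25004 times in HB and 18086 times in AB, and 9 times in HA and 18 times in AA. In WAT the order of the states was the other way round, with 2.97% (1.97 to 4.30%) in HA and 5.34% (3.86 to 7.17%) in AA, but those intervals overlapped and rested on 27 and 41 reads. The later start made up 0.998% in HB and 0.992% in AB, and 0.441% in HA and 0.781% in AA. Tags under 18 nt were not kept, so a later start that ends at base 18 was not seen, whereas an earlier start that ends there was. Shares of later starts and of all shifted starts leave out such tags.

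Together, shifted starts made up 8.03% (HB) and 5.76% (AB) of such reads in brain and 3.52% (HA) and 6.25% (AA) in WAT. In brain the earlier start went with an adenine at base 19 more often than the usual start did, in 36.0% of its reads in HB and 28.0% in AB. Tags with exactly 1 substitution in the first 18 nt came to 6.36% (HB) and 4.99% (AB) of all reads with at most 1 in brain and to 7.07% (HA) and 8.22% (AA) in WAT. The substitution lay in the seed in 1.53%, 0.891%, 1.39% and 1.54% of those reads.

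Tags of any sequence that carried AAGGCAC at bases 2 to 8 summed to 1147466 reads (HB) and 1049057 reads (AB) in brain and to 1166 (HA) and 896 (AA) in WAT. Of them, 94.7% (HB) and 95.5% (AB) belonged to the miR-124-3p sum in brain, against 74.4% (71.7 to 76.8%) in HA and 79.8% (77.0 to 82.4%) in AA. At the 3′ end of the 5p arm, the listed 21 nt tag held 60.6% (55.3 to 65.8%) of the reads that began with its first 18 nt in HB and 57.0% (50.6 to 63.2%) in AB, and the forms 1 base longer and 1 base shorter held 13.2% and 12.6% in HB and 17.1% and 14.3% in AB. The 5p arm began 1 base later than listed in 6.98% (4.65 to 9.99%) of the reads that hold its bases 4 to 18 in HB and in 4.44% (2.32 to 7.63%) in AB.

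Brain and WAT were also compared for 8 other miRNAs known to be enriched in the nervous system. This list was chosen with earlier results of these data known, so it is no independent check of the tissue labels. It holds both arms of miR-129, miR-153 and miR-219 with miR-9-3p and miR-138-3p. All 8 were past a log2 ratio of 1 in favour of brain in both states, with a median of 5.15 between AB and AA and 5.23 between HB and HA (miRNAs at 0 taken at the bound that 3 reads give), where the median of all miRNAs compared was -0.01 and 0.20. miR-219-3p, of a miRNA known from myelinating oligodendrocytes, was read 39847 times in HB and 49302 times in AB, but 12 times in HA and 18 times in AA. At 2936-fold between AB and AA and 2952-fold between HB and HA, it had a larger ratio than miR-124a-3p, and no other of the 8 with reads in WAT did. The ratios of those at 0 in WAT are lower bounds and cannot be ranked against it.

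In WAT the 8 neural miRNAs summed to 105 RPM in HA and 194 RPM in AA, against 6443 in HB and 6826 in AB, and 4 of them were at 0 in HA and 2 in AA. These were miR-138-3p, miR-219-5p and both arms of miR-153 in HA, and both arms of miR-153 in AA. The 4 with 10 or more reads in the 2 WAT libraries together were lower in HA, with log2 ratios from -1.54 for miR-9-3p to -0.14 for miR-129-5p and a median of -0.41 by TMM, whereas the ratios of miR-124a-3p and miR-124b-3p were positive. The direction of the 4 turned with the scaling, since 3 of them were higher in HA with TMM over the conserved miRNAs (median 0.37) and 2 by the reads of all listed miRNAs, and miR-124a-3p was in turn at -0.043 per clean read. The order does not depend on the scaling, and both miR-124 forms had larger ratios than the 4. However, the interval of miR-124a-3p overlapped those of miR-129-5p, miR-9-3p and miR-219-3p, and was apart only from that of miR-129-3p. Of the 4, miR-129-3p held most reads, with 1104 in HA and 2060 in AA, and its ratio of -0.56 (-0.67 to -0.46) was the only one whose interval did not include 0. Of all 142 miRNAs compared in WAT, 85 were lower in HA and 57 higher by TMM, with a median of -0.29.

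In brain, 79 of all 153 miRNAs compared were higher in HB and 74 were lower by TMM, with a median log2 ratio of 0.01. Of the 8 neural miRNAs, 5 were higher and 3 were lower, with a median of 0.31. Per clean read, 4 were higher and 4 lower, since miR-153-3p (0.10 by TMM) was then below 0. The ratios ran from -0.65 for miR-129-5p to 1.25 for miR-129-3p, the only one past 1. miR-219-3p (-0.30) and miR-9-3p (-0.49) were lower in HB and miR-219-5p (0.90) was higher. For miR-129 and miR-219, as for the listed forms of miR-124 under TMM, the 2 arms lay on opposite sides of 0. By TMM, both arms of miR-153 lay above 0 (0.63 for 5p and 0.10 for 3p). So did the arms of miR-124 when counted over all their tags (0.48 for 5p and 0.13 for 3p).

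**Figure D5:**
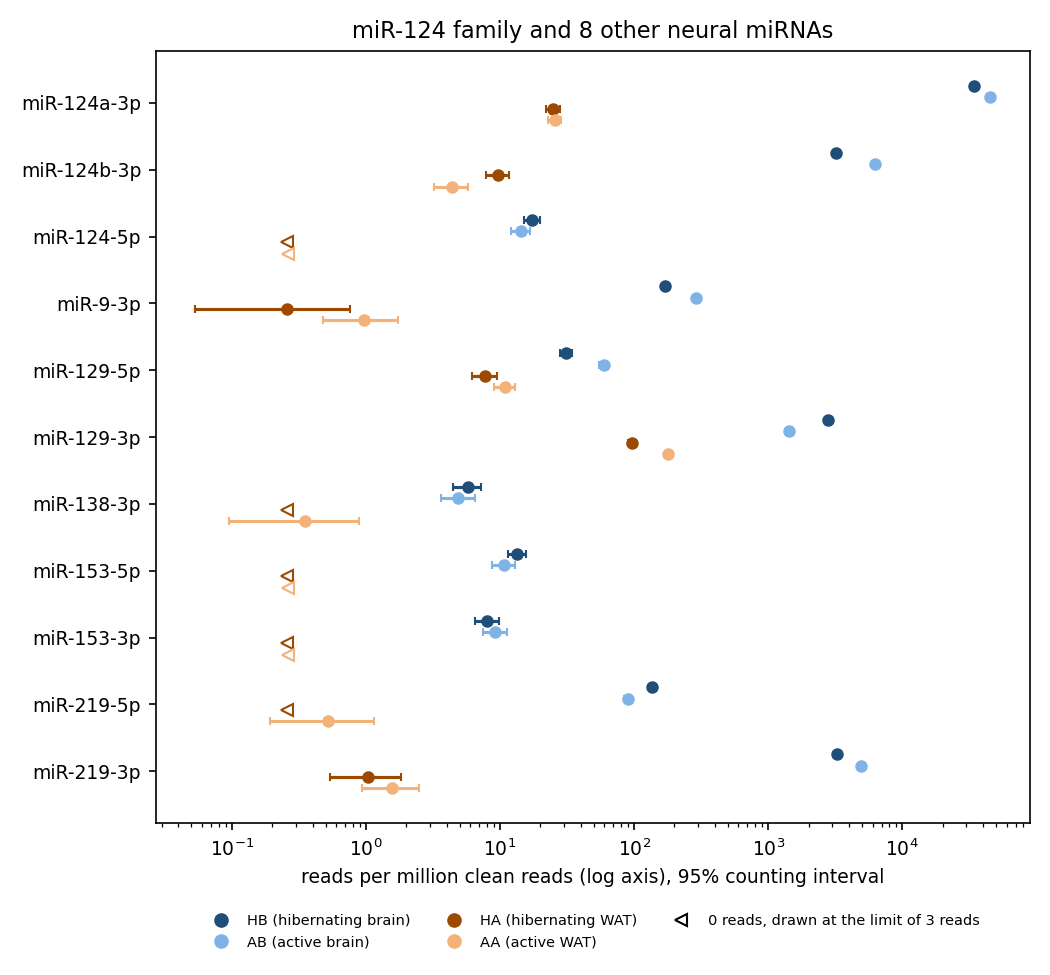
RPM (horizontal log axis) of the 3 members and the 8 other neural miRNAs in the 4 libraries, with 95% counting intervals and open triangles for 0 reads drawn at the limit that 3 reads would give. The brain libraries exceed the WAT libraries for all 11, by the widest measured margin for miR-219-3p and miR-124a-3p.

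Markers of other cell types also differed between the libraries. The 3 muscle miRNAs (miR-1-3p, miR-133-3p and miR-206-3p) summed to 17409 RPM in HA and 18253 in AA, against 1948 in HB and 1605 in AB. The 4 blood cell miRNAs (both arms of miR-142 and miR-486) summed to 253 RPM in HA and 268 in AA, against 28.1 in HB and 62.4 in AB, and the 2 epithelial miRNAs (miR-200a-3p and miR-200b-3p) to 25.9 and 2.45, against 10.2 and 30.3. Of the 9 markers, miR-200a-3p in AA was the only one at 0 in a library. The epithelial sum was higher in HA, as the miR-124-3p sum was. The muscle and blood sums differed little between HA and AA, but their members did not all do so. The muscle sum was almost all miR-1-3p (log2 ratio of HA over AA 0.29), while miR-133-3p was lower in HA with 84 reads against 331 (-1.64) and miR-206-3p was at -0.06. Of the blood markers, miR-142-5p (0.43) and miR-486-5p (0.36) had positive ratios, and miR-142-3p (-0.70) and miR-486-3p (-0.94) negative ones. The part of other cells in the WAT reads of miR-124 was not tested, and in pooled tissue more cells of a type and more RNA per cell cannot be told apart.

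Profiles over the 4 libraries were compared as log2 of RPM plus 1, centred on the mean of each miRNA, over 87 conserved miRNAs with 100 or more reads. By Euclidean distance, miR-219-3p was nearest to miR-124a-3p (0.34), followed by miR-124b-3p (1.57) and miR-9-3p (3.43). The nearest to miR-124b-3p were miR-124a-3p (1.57), miR-219-3p (1.84) and miR-9-3p (2.36). miR-124-5p lay nearest to miR-153-5p (0.37), miR-218a-5p (0.81) and miR-1298-5p (0.82). With 4 points a profile, these distances are a description of which miRNAs have a like pattern of differences over the 4 libraries. Centring removes the level, so a near miRNA need not be as abundant. In HB, miR-219-3p had 3277 RPM against 34186 for miR-124a-3p. The 1 RPM that was added also enters the distances where WAT counts are near 0.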

How the data were processed

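Small RNA of 18 to 30 nt was sequenced on the Illumina/Solexa platform from 4 libraries, HB, AB, HA and AA. After trimming of adapters and a quality filter, the authors deposited the distinct clean sequences of a library as tags, with the count of reads of each and without normalization. No genome was used here. Groups were taken from the labels, with 1 library each.

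The mature sequences of 196 miRNAs were taken from the study's list and matched to the tags. Ratios were scaled with edgeR 4.0.16 under R 4.3.3 by pairwise TMM on the counts of identical tags, with no count test. Intervals are exact Clopper-Pearson intervals at 95% from SciPy 1.17.1. The exception is the difference of the state ratio between tissues, whose 95% interval is a normal approximation from the Poisson errors of the counts. A count of 0 was set to 3 reads, ratios with a 0 are lower bounds, and none was given where both libraries held 3 or fewer reads. A ratio was counted as past the size used where it reached 1 on the log2 scale with 10 or more reads in both libraries together. The scripts were tested on simulated counts. Alternatives were scaling by clean reads, by the reads of the 196 miRNAs, by DESeq2 1.42.0 size factors, by TMM over the 119 conserved miRNAs or after a filter at 10 reads, leaving out tags read only once, and other matching rules.

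Named were the members, the 8 neural miRNAs, the marker miRNAs, the 3 nearest profiles per member and up to 8 leading tags of the 3p and 4 of the 5p arm. The members and lists were chosen with earlier results of these data known, and the shares by base 19, departure from the listed sequence, substitution and seed, and the other scalings of the neural list, were added after the tags had been seen.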

Additional observations from a re-analysis of the deposited data

Results flagged for a closer look

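The difference between hibernation and the active state was not the same in both tissues for the 2 listed 3p forms. For miR-124b-3p, the log2 ratio was -0.67 in brain and 1.49 in WAT, a difference of 2.16 (1.67 to 2.64). It was lower in hibernation in brain and higher in WAT under each of the scalings tried. For miR-124a-3p, the ratio was -0.11 in brain and 0.31 in WAT, a difference of 0.41 (0.18 to 0.65), and its signs were not stable: the ratio was negative in both tissues per clean read (-0.40 and -0.043) and positive in both with TMM over the conserved miRNAs (0.026 and 1.08). With 1 library per condition neither difference was tested, and the intervals cover counting error only. The WAT values rest on 286 and 292 reads of miR-124a-3p and on 111 and 50 reads of miR-124b-3p. The miR-124-3p sum was positive in both tissues by TMM (0.13 in brain and 0.61 in WAT), with a difference of 0.49 (0.35 to 0.63). Per clean read it was -0.16 in brain and 0.26 in WAT. By TMM, the opposite signs were thus those of single forms, not of the whole arm. Among other conserved miRNAs, mean tag length was higher in HA than in AA for 46 of 55. It was lower in HB than in AB for 41 of 64. The part of tag length in these ratios was not tested.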

How the results depend on the processing

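Of 111 alternative values, 70 lay within the counting interval of the value reported and 41 outside it, and none past a log2 ratio of 1 changed sign. Brain over WAT kept its direction throughout. Another scaling shifts all ratios of a comparison together, in WAT by -0.35 per clean read, 0.32 by the reads of all listed miRNAs, 0.25 by DESeq2 and 0.78 by TMM over the conserved miRNAs.

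For the miR-124-3p sum, HB over AB was -0.16 per clean read, 0.033 by the listed reads, 0.12 by DESeq2 and 0.26 by conserved TMM. It was -0.16 with the 2 listed sequences only, 0.17 with tags holding bases 2 to 17 and 0.15 with 1 substitution allowed. HA over AA of the sum was 0.26, 0.93, 0.86 and 1.39 under the same 4 scalings. AB over AA was 10.74 by DESeq2. HB over HA was 9.55 by the listed reads, 10.28 by DESeq2, 10.22 by conserved TMM and 9.99 with the 2 listed sequences only. For miR-124a-3p, the same 4 scalings gave -0.40, -0.20, -0.11 and 0.026 for HB over AB and -0.043, 0.62, 0.56 and 1.08 for HA over AA. AB over AA was 10.87 by DESeq2 and HB over HA 9.76 by the listed reads. For miR-124b-3p, HB over AB was -0.96 per clean read, -0.76 by the listed reads and -0.54 by conserved TMM, HA over AA was 2.27 by conserved TMM, and HB over HA was 7.71 by the listed reads.

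Over tags that equal the start of miR-124b-3p only, which leaves out the departing tags, its share was 5.33% (HB), 8.32% (AB), 19.1% (HA) and 9.49% (AA), and the mean length 18.69, 18.76, 19.17 and 18.91 nt, with the same order of libraries for the share. Shifted 5′ ends by a core of bases 5 to 16 came to 8.55% in HB and 6.02% in AB. No paired analysis was possible because each condition had 1 library, and for the same reason no library could be left out. Depth limits the WAT values most, where miR-124b-3p had 50 to 111 reads and miR-124-5p had 0.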
